A study of Oryza sativa with 200 samples.

Results

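The 3 silicon transporter genes LSI1, LSI2 and LSI6 of rice are described here in leaf RNA of a breeding population. LSI1 is Os02g0745100 on chromosome 2, LSI2 is Os03g0107300 on chromosome 3 and LSI6 is Os06g0228200 on chromosome 6. They were chosen by identifier and are 3 of the 37849 gene rows in each of 2 count tables. The population, named JAM2, is a multi-parent cross of 4 varieties, Akidawara, Iwaidawara, Tachiharuka and Toyomeki. RNA came from leaves of 100 of its inbred lines in 2022 (generation F5, sampled on 1 July) and again in 2023 (generation F6, sampled on 29 June), 6 weeks after transplanting and between 9 and 11 in the morning. All lines in both years grew in a paddy field with chemical fertilizer that supplied, per hectare, 56 kg of N, 176 kg of PO4, 56 kg of K, 90 kg of Mg and 120 kg of SiO2, so every plant was supplied with silicon and the labels used here give no group without it. Each line was 33 plants in 1 plot, with 1 leaf sample and 1 library in each year, and the labels describe no replicate plots. The year therefore covers the season, the sampling day, the generation and the set of libraries at once, and these cannot be told apart.

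Rice takes up silicon as silicic acid and deposits it as silica in leaves and husks, where it is known to stiffen the tissue and to limit disease and water loss. In roots, Lsi1 is a channel of the NIP group of aquaporins that lets silicic acid into the cell on the outer side of the exodermis and endodermis, and Lsi2 is an active transporter that moves it out again on the inner side, towards the xylem. Lsi6 is a close relative of Lsi1, known from the xylem parenchyma of leaf sheaths and blades, where it takes silicic acid out of the xylem, and from the nodes below the panicle.

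Libraries held 3254834 to 37774023 counts in 2022 (median 7768777) and 3729294 to 16881699 in 2023 (median 11272411). Depth in 2022 was uneven, with 30 libraries at 11377900 counts or more and the other 70 at 10002076 or less. Levels are given as CPM, the count in each library scaled to a common total with factors of the TMM method (trimmed mean of M values). The tissue looked like leaf: 5 identifiers listed as leaf markers, among them the Rubisco activase gene RCA (Os11g0707000), summed to 40690 to 85779 CPM per library in 2022 and 57166 to 110318 in 2023. Of 7 root markers, 5 had a mean under 1 CPM in each year, and 4 had no count in any 2022 library and 2 none in 2023. The nitrate transporter gene NRT2.2 (Os02g0112600) was one of those at 0 in both years, and the 7 together summed to 0.178 to 5.33 CPM per library in 2022 and 0.826 to 6.55 in 2023. The part of root RNA in the values of LSI1 and LSI2 was not tested. Of 4 panicle markers 3 had a mean under 1 CPM in each year, and the remaining one, MADS1 (Os03g0215400), was at a mean of 5.32 and 4.47 CPM. MADS1 was uneven between lines, with medians of 1.22 and 1.59 CPM and highest values of 27.6 and 30.8 CPM. It had 0 counts in 14 libraries of 2022 and 8 of 2023.

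LSI6, the gene of xylem unloading, was read well in every library. In 2022 it ranged over the 100 lines from 42.7 CPM through a median of 113 to 173 CPM, with 305 to 5882 counts per library. The 2023 libraries gave 85.9 CPM at the lowest, 169 at the median and 270 at the highest, with 436 to 3244 counts. The years overlapped, but 46 lines of 2023 lay above the highest line of 2022 and 18 lines of 2022 lay below the lowest of 2023.

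LSI1, the root influx channel, was also read in all 200 leaf libraries. Its lowest, median and highest lines were at 9.17, 15.8 and 30.9 CPM in 2022 (48 to 743 counts) and at 11.7, 20.4 and 39.9 CPM in 2023 (at least 59 counts). Here the years overlapped widely, with 4 lines of 2023 above the highest of 2022. A library held a median of 7.07 reads of LSI6 for each read of LSI1 in 2022 (range 2.77 to 12.4) and of 8.20 in 2023 (2.62 to 18.8). No exon lengths were used here, so this is a ratio of reads and not of transcripts per gene. Whether more LSI1 RNA means more cells that make it or more of it per cell cannot be told apart in whole leaf samples, and this holds for all values given here.

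LSI2, the root efflux transporter, was close to absent from the counts. In 2022 it had 0 counts in 100 libraries that together held 1176649994 counts, which allows a level of up to 0.00255 CPM (3 counts over the year). In 2023 it had 7 of 1078007444 counts, or 0.00649 CPM with an exact 95% Poisson interval of 0.00261 to 0.0134. These LSI2 levels are counts over the total of the year without TMM factors. With TMM factors the mean over the libraries of 2023 was 0.00667 CPM. These 7 counts fell in 5 libraries, 3 of them in line J2_307 and 1 each in J2_282, J2_310, J2_330 and J2_415, and the other 95 had none. The number of libraries with a count did not pass between the years (5 of 100 against 0 of 100, two-sided Fisher's exact test, p = 0.0594). LSI2 did not pass the filter on low counts. Without that filter it was at 0.68 on the log2 scale (edgeR's quasi-likelihood test, Benjamini-Hochberg adjusted p = 0.00261), a fit that rests on the same 7 counts and gives no usable fold change. Intervals and limits here cover counting error only. The limit of 2022 and the interval of 2023 follow different rules, so their ends are not to be set against each other. Per the table's name in the labels only unique reads in exons were counted, and whether that removed reads of any of the 3 genes was not tested.

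**Figure D1:**
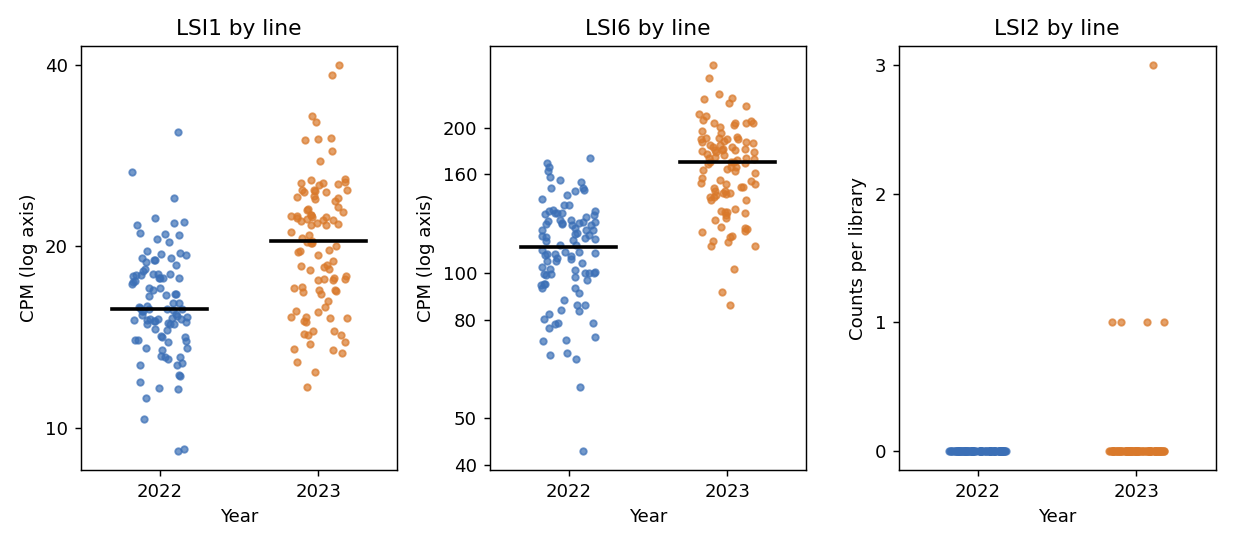
Level of LSI1 and LSI6 in CPM (log axis) and counts of LSI2 per library, by year, with 1 point per line (100 lines a year) and a bar at the median. LSI6 and LSI1 shift upwards in 2023 with overlap, and LSI2 is at 0 in all but 5 libraries of 2023.

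The first comparison asked how the same lines differed between the years. Both testable genes rose in 2023. The rise of LSI6 was 1.48-fold (log2 change 0.57, SE 0.0461, adjusted p = 3.91e-25) and that of LSI1 was 1.26-fold (log2 change 0.33, SE 0.0465, adjusted p = 4.56e-11), both by edgeR's quasi-likelihood test with Benjamini-Hochberg adjustment over 18674 genes. Such calls were common: 71.2% of all tested genes passed in either direction and 34.3% passed as higher in 2023, so the calls alone set neither gene apart. Of the called genes 48.1% were higher in 2023, and 28.7% with library totals in place of TMM factors. The median gene was at −0.01 and, with library totals, at −0.12, where LSI6 was at 0.46 and LSI1 at 0.22. With all tested genes ordered by signed change, from the largest fall to the largest rise, LSI6 lay at the 95.6th percentile and LSI1 at the 87.4th. Falls of equal size are not counted in these percentiles. Neither reached a 2-fold change, which 1.54% of tested genes did in either direction.

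Line by line, LSI6 was higher in 2023 in 96 of 100 lines. Its change ran from −0.25 on the log2 scale in line J2_227 through a median of 0.55 to 1.98 in J2_403, and 14 lines were up by at least 2-fold. LSI1 was higher in 80 of 100 lines, with changes from −1.14 in J2_378 through a median of 0.33 to 1.73 in J2_204 and 2 lines up by at least 2-fold. Of the 18490 genes whose mean reached 1 CPM, 2.02% were higher in 2023 in as many lines as LSI6 and 12.7% in as many as LSI1. Nearly every line thus had more LSI6 in 2023, and most had more LSI1.

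**Figure D2:**
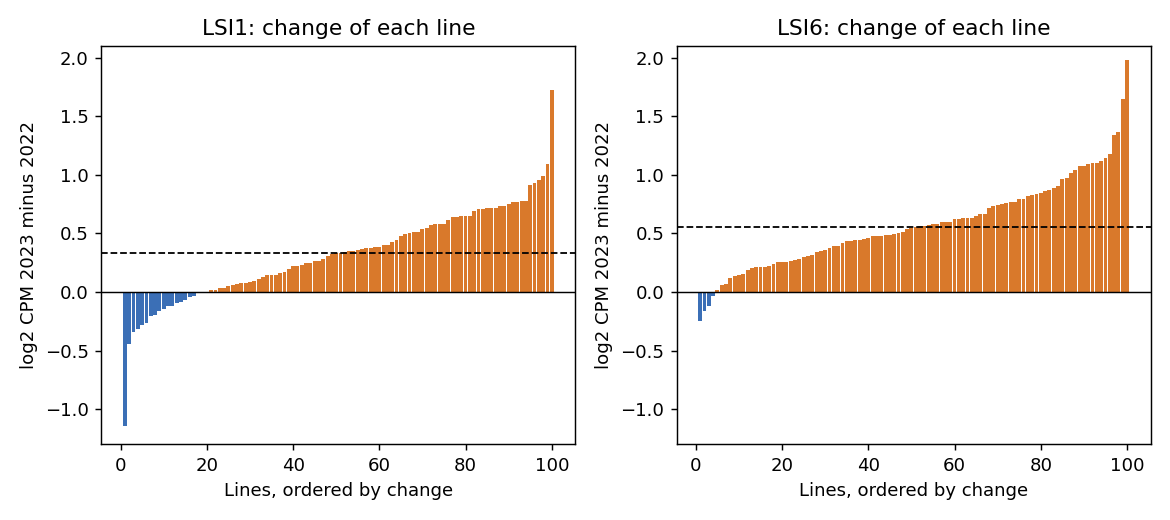
Change of LSI1 and LSI6 in each of 100 lines as log2 CPM of 2023 minus 2022, ordered by size, with the median as a dashed line. Bars above 0 are lines higher in 2023, which are 80 for LSI1 and 96 for LSI6.

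The 2 genes were also set against each other within a library, a measure that no scaling of libraries can move and that was chosen after the values were seen. The mean log2 ratio of LSI6 to LSI1 reads was 2.77 ± 0.47 in 2022 and 3.03 ± 0.52 in 2023 (SD, n = 100 lines), a rise of 0.25 (SE 0.0605, two-sided sign-flip permutation test over lines, p = 6e-05). LSI6 therefore rose more than LSI1 on average, but the ratio was higher in 2023 in only 59 of 100 lines. It rose by 0.19 in the 30 lines whose 2022 library was deepest (permutation p = 0.021, 18 lines higher) and by 0.28 in the other 70 (permutation p = 0.00067, 41 lines higher). The summed leaf markers moved the same way as both genes, from a median of 58775 to 76486 CPM, and the summed root markers from 2.22 to 2.68 CPM. By edgeR 3 of the 5 leaf markers rose, RCA by 0.50, beside 34.3% of all tested genes. The other 2 did not pass, and their direction turned with the lines: Os01g0600900 and Os09g0346500 passed as higher in the 30 deepest (0.71 and 0.17) and as lower in the other 70 (−0.29 and −0.16). With library totals Os09g0346500 passed as lower (−0.18). MADS1 of the panicle list was at −0.33 and did not pass (edgeR, Benjamini-Hochberg adjusted p = 0.286), though it passed as lower with the trend along the columns in the fit. The part of these markers in the changes was not tested.

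**Figure D3:**
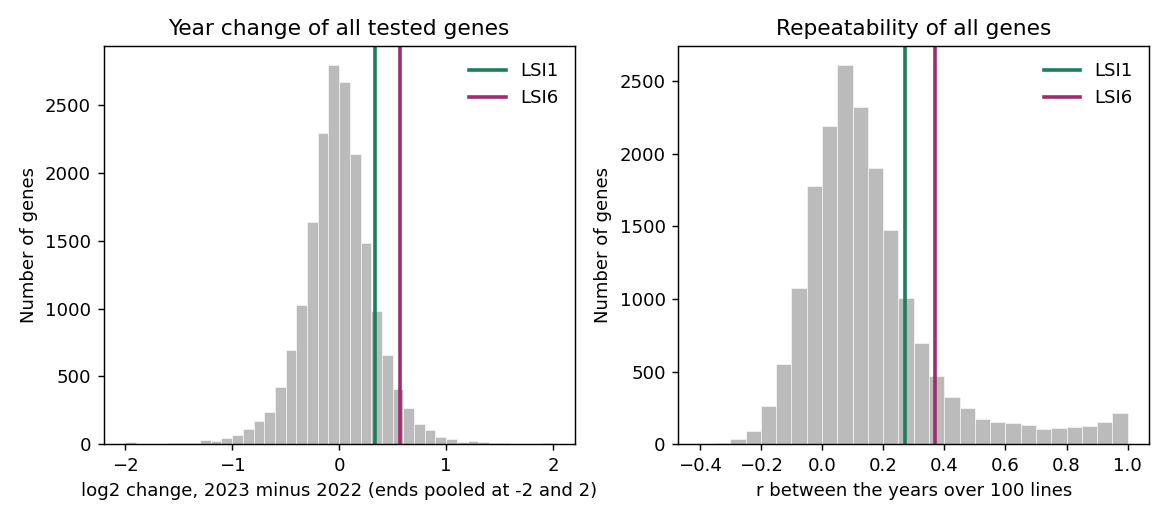
Distribution of the log2 change between the years over 18674 tested genes and of the correlation between the years over 18490 genes, with LSI1 and LSI6 marked as vertical lines and changes beyond the axis pooled at its ends. LSI6 lies further to the right than LSI1 in both, and both genes lie to the right of the bulk of the genes.

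Related channels were mostly too low in these leaves to compare. Of 9 listed relatives (8 other NIP aquaporins and 1 relative of LSI2) only 2 passed the filter on low counts, of which 1 rose. These calls depended on lines and scaling. NIP1;2 (Os01g0202800) rose from a mean of 0.941 to 1.60 CPM (log2 change 0.76, SE 0.0976, adjusted p = 1.59e-12, 79 of 100 lines higher), but in the 30 lines whose 2022 library was deepest its change was 0.37 and did not pass (adjusted p = 0.0606 by edgeR). NIP3;1 (Os10g0513200), a channel known for boron transport, was at 14.0 CPM in 2022 and 13.5 in 2023, and its change of −0.05 did not pass (adjusted p = 0.447, both by edgeR with Benjamini-Hochberg adjustment). It passed as lower with library totals (−0.16), in the 30 lines (−0.43) and in the 50 lines with lower numbers (−0.31), and as higher in the 50 with higher numbers (0.18). The listed relative of LSI2, Os10g0547500, had 0 counts in 2022 and 1 in 2023. Among the NIP genes looked up here, LSI1, LSI6 and NIP3;1 were thus those read at more than a few CPM.

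Other mineral transporters went both ways, with 5 of 10 tested genes higher in 2023, 2 lower and 3 not passing, and a median change of 0.12 beside −0.01 for all genes. The share called was close to the 71.2% of all tested genes, so the count sets the list apart in no way. With library totals it was 4 higher and 3 lower, and in the 30 lines 3 higher and 0 lower. The most changed of them was NRAMP5 (Os07g0257200), a root uptake transporter of manganese and cadmium, at 0.86 (SE 0.145, adjusted p = 3.45e-08, from a mean of 1.75 to 3.10 CPM, 75 of 100 lines higher). Os07g0232900 changed by −0.61 and was higher in 2023 in 19 lines, and in the 30 lines alone it was at −0.11 and did not pass (adjusted p = 0.459 by edgeR). The ammonium transporter gene AMT1;1 (Os04g0509600) rose by 0.48 and the sodium transporter gene HKT1;5 (Os01g0307500), which acts at the xylem, by 0.34, a call that did not hold in the other 70 lines (0.15) or in the 50 with higher numbers (0.19). Of the root markers, 2 were tested and both rose, beside 34.3% of all tested genes. Neither passed with library totals, in the other 70 lines or in either set of 50 lines, and 1 passed in the 30 lines. They were Os02g0620600 at 0.21 and the iron transporter gene IRT1 (Os03g0667500) at 0.26 (adjusted p = 0.0245 by edgeR with Benjamini-Hochberg adjustment, mean 1.07 CPM in 2022 and 1.26 in 2023).

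Within a year, both genes varied between lines about as much as an ordinary gene. The SD of log2 CPM over lines was 0.36 for LSI6 in 2022 and 0.31 in 2023, at the 56.5th and 50.6th percentile of 18490 genes. For LSI1 it was 0.29 and 0.36, at the 42.3rd and 59.4th percentile. The highest line exceeded the lowest by 4.05-fold for LSI6 in 2022 and 3.14-fold in 2023, and by 3.37-fold and 3.41-fold for LSI1. With counting error taken out by edgeR's dispersion estimate, the coefficient of variation between lines was 23.7% and 20.9% for LSI6 and 18.4% and 24.1% for LSI1 in 2022 and 2023, beside a median of 19.3% and 18.4% over all tested genes. Counting error made up an estimated 17.4% of the variance of LSI1 in 2022 and 8.61% in 2023, and under 2% for LSI6 (1.68% and 1.45%). No gap separated the lines into classes: with at least 10 lines on each side, the widest gap was 3.62% of the range.

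The second comparison asked whether a line kept its level from one year to the next. For LSI6 the correlation between the years over 100 lines was r = 0.370 (permutation p = 0.00018) and rho = 0.367 (permutation p = 0.00019), with an adjusted p of 0.00125 over 18490 genes and r = 0.430 without the 2 farthest lines. For LSI1 it was r = 0.273 (permutation p = 0.00613) and rho = 0.345 (permutation p = 0.00043), with an adjusted p of 0.0302 and r = 0.327 without the 2 farthest lines. Both passed, as did 22.3% of all genes, and both lay above the median r of 0.114, LSI6 at the 87.8th and LSI1 at the 80.1st percentile. At an r of this size, most of the variance between lines in one year was not shared with the other year.

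J2_365 had the most LSI6 in 2022 with 173 CPM and ranked 98 of 100 from the lowest in 2023 with 234.9 CPM, and J2_226 had the most in 2023 with 270 CPM after 149 CPM in 2022. The line lowest in 2022, J2_416 at 42.7 CPM, stood at 134 CPM in 2023. Of the 10 highest lines for LSI6, 5 were among the 10 highest in both years, and 2 were among the 10 lowest in both. For LSI1 these numbers were 2 and 1. J2_378, the highest line for LSI1 in 2022 at 30.9 CPM, was at 13.9 CPM in 2023, the 8th lowest, and J2_204 went from 11.9 CPM, the 7th lowest, to the highest at 39.9 CPM.

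**Figure D4:**
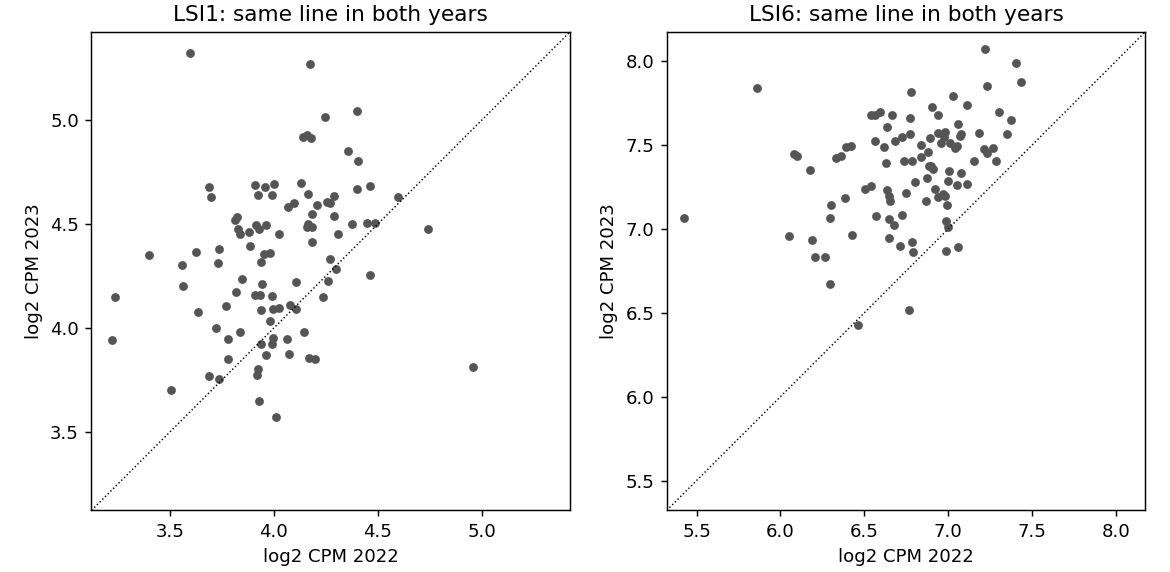
Level of LSI1 and LSI6 in 2023 against 2022 as log2 CPM, with 1 point per line and a dotted line where the years are equal. The points spread widely for both genes (r = 0.370 for LSI6 and 0.273 for LSI1), and most lie above the dotted line.

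The call for LSI1 changed with the set of lines, the scaling and a random reduction of counts, and the cause was not tested. Its r was 0.526 in the 30 lines whose 2022 library was deepest (adjusted p = 0.0243) and 0.217 in the other 70 (adjusted p = 0.226), a difference that was not tested. It was 0.210 with libraries scaled by total counts (adjusted p = 0.113). Where counts were drawn down at random until every library matched the shallowest, it was 0.0737 (adjusted p = 0.726). For LSI6 the same 30 lines gave 0.432 (adjusted p = 0.0915) and the 70 gave 0.375 (adjusted p = 0.0108), and its call held in the other settings.

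The third comparison asked whether lines with more of one channel had more of the other. They did not pass as related in either year. In 2022 r between LSI1 and LSI6 was −0.0375 (permutation p = 0.710), rho = −0.0561 (permutation p = 0.577), with an adjusted p of 0.884 over all genes set against LSI1 and r = −0.0718 without the 2 farthest lines. In 2023 it was r = −0.184 (permutation p = 0.0688), rho = −0.140 (permutation p = 0.164), adjusted p = 0.173, and −0.173 without the 2 farthest lines. By comparison, 4.84% of all genes were related to LSI1 in 2022 and 25.8% in 2023 at an adjusted p under 0.05, and 12.0% and 28.7% to LSI6. With libraries scaled by total counts the 2023 value was −0.279 and passed (adjusted p = 0.0245). Within the 30 deepest r was −0.0212 in 2022 and −0.0186 in 2023, and within the other 70 it was −0.0508 and −0.225.

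The changes of the 2 genes between the years did not pass as related over all genes. Over the lines, the change of LSI1 and that of LSI6 had r = −0.213 (permutation p = 0.0335) and rho = −0.281 (permutation p = 0.00507), with r = −0.215 without the 2 farthest lines. Over all genes set against the change of LSI1 the adjusted p was 0.121, while 18.7% of genes passed. The r of the changes was −0.242 with library totals, −0.347 in the 30 deepest and −0.209 in the other 70. The sign was negative in each of these, and an adjusted p was computed only for the r over all 100 lines.

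**Figure D5:**
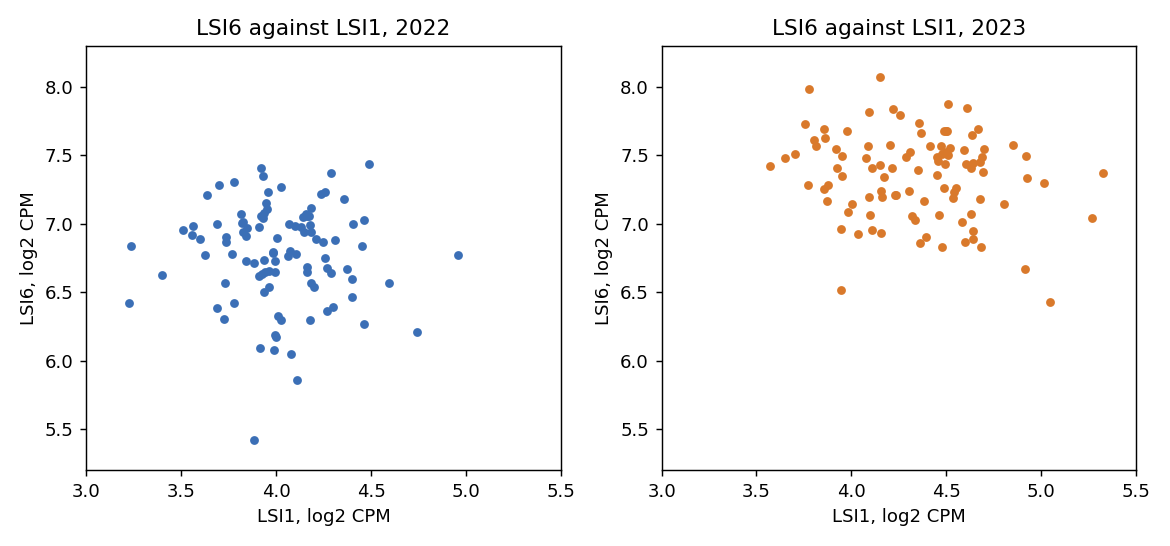
Level of LSI6 against LSI1 as log2 CPM in 2022 and 2023, with 1 point per line (100 lines a year). The points form a cloud without a clear slope, with r = −0.0375 in 2022 and −0.184 in 2023.

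Many genes of these tables followed the order of the columns, 52.6% of them in 2022 and 8.96% in 2023, so the same was asked of the silicon genes. The labels do not say what the order stands for. In 2022 LSI6 rose weakly with column position (r = 0.242, permutation p = 0.0145, rho = 0.203, permutation p = 0.0427, adjusted p = 0.0307 over all genes, 0.296 without the 2 columns farthest from the middle). The call was lost with library totals (0.214, adjusted p = 0.0618). It held in the 70 lines with shallower 2022 data (0.319, adjusted p = 0.0273), and the relation went the other way without passing in the 30 deepest (−0.318, adjusted p = 0.322). LSI1 in 2022 (0.0769, adjusted p = 0.545) and both genes in 2023 (0.128 for LSI1 and 0.157 for LSI6, adjusted p = 0.496 and 0.366) did not pass. After a straight and a curved trend along the columns had been taken out, repeatability was 0.421 for LSI6 (adjusted p = 0.000155) and 0.283 for LSI1 (adjusted p = 0.0227), and the changes between the years were 0.57 and 0.33. Against library total 24.1% of genes passed in 2022 and 0.0919% in 2023, and neither silicon gene in either year (adjusted p from 0.456 to 0.974). LSI1 in 2023 had r = −0.169 (permutation p = 0.0921) and rho = −0.241 (permutation p = 0.016) with library total. For LSI1 in 2022 and for LSI6 in both years the permutation p of rho was 0.357 to 0.458.

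Relations of LSI6 with a gene of the clock and with one of flowering each passed in 1 year, and the difference between the years was not tested. LSI6 was higher in lines with more OsLHY (Os08g0157600), a morning transcription factor of the clock, in 2022 (r = 0.293, permutation p = 0.00317, rho = 0.211, permutation p = 0.0361, adjusted p = 0.0324 over all genes, 0.257 without the 2 farthest lines). In 2023 r was −0.0733 (adjusted p = 0.634). The 2022 relation did not pass with the trend over column position removed (0.142, adjusted p = 0.397) or with library totals (0.272, adjusted p = 0.0502), and was −0.425 (adjusted p = 0.266) in the 30 deepest and 0.386 (adjusted p = 0.0222) in the other 70. Against Hd3a (Os06g0157700), a florigen made in leaves, LSI6 was lower in lines with more of it in 2023 (r = −0.302, permutation p = 0.00219, rho = −0.266, permutation p = 0.00779, adjusted p = 0.0118, −0.254 without the 2 farthest lines), and in 2022 r was 0.100 (adjusted p = 0.598). The 2023 relation was −0.332 with the trend removed, −0.171 (adjusted p = 0.713) in the 30 lines, −0.354 (adjusted p = 0.0178) in the other 70, and −0.333 among the 67 lines with any count of Hd3a. Among the 76 lines with a count in 2022 it was −0.164, the opposite sign to that over all lines of that year. LSI1 did not pass against either gene in either year (adjusted p from 0.419 to 0.977).

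Across the whole table, 687 genes were higher and 563 lower with LSI6 in both years at an adjusted p under 0.05 in each, together 6.76% of the 18489 other genes. For LSI1 it was 587 genes or 3.17%, of which 269 were higher with it. The genes most like LSI6 were Os08g0490100 (r = 0.599 in 2022 and 0.586 in 2023) and Os08g0441500 (0.583 and 0.621), and the most opposite were Os01g0740500 (−0.579 and −0.516) and Os08g0562700 (−0.515 and −0.603), each over 100 lines a year. For LSI1 the most alike were Os11g0127800 (0.472 and 0.472) and Os12g0124000 (0.471 and 0.496), and the most opposite Os10g0517500 (−0.518 and −0.541) and Os03g0330300 (−0.511 and −0.535). The files pair none of these identifiers with a name. The values come from the same libraries as those of the silicon genes and share their scaling.

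The same was then asked across years. When LSI6 of one year was set against every gene of the other year, 0 genes passed in both directions of the exchange with the same sign (Pearson's r with Benjamini-Hochberg adjustment, 0.0% of genes, and 0 by Spearman's rho). At an unadjusted p under 0.05 of Pearson's r in each direction there were 86 genes, or 0.465%. For LSI1 0 genes passed as well (3.00% of genes at an unadjusted p under 0.05 in each, and 0 by Spearman's rho). Os08g0490100, for example, had r = 0.0484 between LSI6 of 2022 and itself of 2023, and 0.145 the other way, and its own repeatability was 0.0875. For the pair most like LSI1 the values were 0.195 and 0.251 for Os11g0127800 and 0.188 and 0.244 for Os12g0124000, none of which passed. Os10g0517500, opposite to LSI1, was at −0.256 and −0.305 and did not pass either (Benjamini-Hochberg adjusted p = 0.219 and 0.112). LSI1's own r between the years, 0.273, would thus not have passed both ways. Low repeatability of a silicon gene can limit its r across years, and its part in these values was not tested. The 0 genes therefore do not decide whether lines carry the relations seen within a year.

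Neighbouring genes were looked at because lines that inherit a stretch of chromosome from the same parent share all genes on it. Among the 121 genes within 200 identifiers of LSI6 on either side, 14 were related to it with the same sign in both years, or 11.6% beside 6.76% of all genes and 6.49% of its chromosome. For LSI1 it was 5 of 164, or 3.05% beside 3.17% of all genes. The neighbour of LSI6 with the highest likeness was Os06g0240001 (r = 0.437 in 2022 and 0.468 in 2023), and that of LSI1 was Os02g0752800 (0.458 and 0.644). With the gene taken from the other year these were 0.050 and 0.246 for the former and 0.186 and 0.156 for the latter, and none passed. The part of low repeatability in these values was not tested either.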

How the data were processed

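The authors deposited 1 table of raw counts for each year, with 37849 identifiers of the Rice Annotation Project form and whole numbers that sum to a different total in each library. Per the labels the table's name says that unique exon reads were counted, and the libraries were poly(A) RNA with a stranded kit. The submitters' processing notes name IRGSP-1.0 as the build; which aligner and counter were used is not given in the sources used here. All 200 columns matched 1 labelled library each, and 0 columns were left over.

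Members and lists were chosen with earlier results of these data known. The years were compared on all 200 libraries with edgeR 4.0.16 in R 4.3.3 (filterByExpr by year, TMM factors, year as the sole term, quasi-likelihood test, Benjamini-Hochberg over 18674 genes, a call at an adjusted p under 0.05). Each SE was taken as the absolute log2 change over the root of its F value. On simulated counts for 18674 genes, 83 of 100 genes changed by 0.3 on the log2 scale and 98 of 100 changed by 0.6 were recovered. No other gene was changed there, and 5 were called falsely. In the real comparison 71.2% of genes were called, so the setting differs and the recovery need not carry over. Relations over lines used log2 CPM with a prior count of 2 for the 18490 genes whose mean reached 1 CPM, with adjusted p from the t distribution of r over all of these genes and two-sided p from 100000 permutations. No p was adjusted over the silicon genes alone. DESeq2 1.42.0, library totals, thinning, subsets of lines and trends along the columns were alternatives; the counts by list under them and the ratio of LSI6 to LSI1 were added after seeing the data. The line number pairs the libraries by design, since it is the same line in both years. Over genes, deviations of a line from the year means had a median r of 0.551 between its own libraries (lowest 0.188) and −0.00882 between different lines. For 97 of 100 lines, and not for the rest, the highest r was with the line's own library. The fit with the line as a block changed no call of the silicon genes. Names outside the silicon genes come from general knowledge and were kept where the RefSeq table of assembly ASM3414082v1 lists the symbol on the chromosome of the identifier. That table lists Lsi1, Lsi2 and Lsi6 on chromosomes 2, 3 and 6. It has no identifiers of the deposited kind, so no coordinates or lengths were taken from it. Genes named are the 3 members, for each the 2 most like and 2 most opposite by the weaker r of the years and 1 neighbour, and up to 4 of each list by size of change. Replicates are lines, each with 1 library a year, so p-values measure the spread between lines in these years.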

Additional observations from a re-analysis of the deposited data

How the results depend on the processing

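The rise of LSI6 (0.46 to 0.66 on the log2 scale) and of LSI1 (0.22 to 0.38) kept its direction and call in all 9 alternatives without the replicate block: library totals, DESeq2, no filter, thinning, a trend over position, and 4 subsets of lines. With the line as a replicate block they were 0.57 and 0.32, and 13804 genes were called beside 13298. Repeatability of LSI1 lost its call by library totals (0.210), in the 70 lines with shallower 2022 libraries (0.217) and with thinning (0.0737), and that of LSI6 in the 30 deepest (0.432). LSI1 with LSI6 in 2023 gained a call by library totals (−0.279). LSI6 with column position in 2022 lost its call by library totals (0.214) and turned to −0.318 in the 30 deepest. Genes higher with LSI1 in both years were 269, but 451 with the position trend removed and 87 in the 70 lines, and those lower with it were 118 in the 70. For LSI6 the 70 lines gave 328 higher and 286 lower beside 687 and 563; the smaller number of lines lowers such counts by construction. For the other losses the cause was not tested. The median gene stood at −0.12 with library totals. LSI1 had as few as 48 counts in a library, and LSI2, with 7 counts in all, could not be compared between lines. The 30 deepest libraries also differ from the other 70 in their lines and column positions.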
